A study of Mus musculus with 8 samples.

Results

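CTLA-4 blockade in B cell-deficient hosts was set against the untreated state of wild-type hosts, to ask which transcripts of tumour phagocytes it brought to the wild-type level and which it carried beyond. The comparison rests on 4 of the 8 libraries of the series, chosen by their labels: 2 from muMT mice given anti-CTLA-4 antibody, called treated muMT below, and 2 from wild-type (WT) C57BL/6 mice given isotype IgG. The 2 libraries from muMT mice given isotype IgG served as the starting point, and the 2 from WT mice given anti-CTLA-4 entered the fit and are quoted for a few genes. All hosts carried intracranial GL261 glioma cells that express mCherry and EGFP. Phagocytes were sorted at day 23 as live brain cells positive for both mCherry, taken up from the tumour, and CD45.2, a leukocyte marker. muMT is the label for hosts that lack B cells. Neither the ages of the mice nor a strain background of the muMT hosts beyond that name was given in the sources used here. Host and antibody differ at once between muMT anti-CTLA-4 and WT isotype. Each difference between them is thus the effect of blockade in muMT hosts minus the host difference under isotype. Both are counted below over all genes, and muMT isotype values are given for part of the named genes. Where only treated muMT and WT isotype values are given, their difference does not show what blockade did.

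CTLA-4 is an inhibitory receptor of T cells, and antibodies that block it release T cell activity. Brain tumours hold resident microglia and macrophages derived from blood monocytes, and both engulf tumour material. Interferon-gamma from lymphocytes drives macrophages toward antigen presentation and T cell-attracting chemokines. IL-4 and IL-13 act through STAT6 and drive an alternatively activated state marked by arginase, chitinase-like proteins and PD-L2.

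Each library held 24784639 to 31289104 reads in genes, and 16608 genes were tested. Levels are given as CPM, each count divided by the library's TMM-scaled total of reads in genes. Phagocyte genes were high in all 3 groups: Itgam, the integrin CD11b, read 481 to 493 CPM in muMT isotype, 414 in both treated muMT libraries and 456 to 466 in WT isotype. Reads of the B cell genes Jchain and Cd79a were few in all 3 groups. The 11 tested genes of the B and plasma cell list nonetheless summed to 271 and 292 CPM in muMT isotype. That sum was 313 and 323 in treated muMT and 354 and 366 in WT isotype. Jchain, the immunoglobulin joining chain, had 0 reads in muMT isotype, 2 in treated muMT and 82 in WT isotype. In muMT isotype, 0 reads allow up to 0.050 CPM over both libraries, for counting error only. Cd79a, a chain of the B cell receptor, had 6, 5 and 11 reads. Ighm, the gene that the muMT name refers to, was listed at 0 in every library, WT included, and so checks nothing. The groups also differed in makeup: reads outside annotated genes came to 20.6% ± 0.258 (SD, n = 2) for muMT isotype, 18.6% ± 0.0606 for treated muMT and 29.0% ± 0.804 for WT isotype. Whether both libraries of a group came from different mice is not stated in the labels, so p-values cover only the spread between libraries, which may be technical. In sorted bulk RNA, fewer cells of a type and less RNA per cell cannot be told apart.

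Treated muMT phagocytes were far from the WT isotype state. With edgeR's quasi-likelihood test at a Benjamini-Hochberg adjusted p under 0.05, 3963 genes were higher in muMT anti-CTLA-4, which is 23.9% of those tested, and 3815 were lower, which is 23%. At 2-fold or more, 385 of these were higher and 896 lower. The excess of lower genes was not seen in a narrower set. Of genes of at least 5 CPM that were not predicted ones and did not overlap between libraries, 109 were higher and 94 lower at that size. Which of these filters removed the excess was not tested. The difference between hosts under isotype, called the isotype gap below (WT isotype minus muMT isotype), held 3312 genes higher in WT (19.9%) and 3192 lower (19.2%). Blockade in muMT hosts (muMT anti-CTLA-4 minus muMT isotype) raised 3678 genes (22.1%) and lowered 3385 (20.4%). The gap and the blockade effect share the muMT isotype libraries, so an error in those libraries moves both the same way. Counts of gene list members called against WT isotype, given below, stand beside the shares of 23.9% higher and 23% lower. No list was tested against these shares.

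Among the 12 genes highest over WT isotype by p-value were Chil3, Arg1 and 5 chemokines. Chil3, the gene of the chitinase-like lectin Ym1, read 1733 and 1750.2 CPM in treated muMT, 124 and 125 in WT isotype, and 269 and 252 in muMT isotype. The treated libraries were far above both isotype groups, with no overlap (log2 difference from WT isotype 3.81, SE 0.048, edgeR adjusted p = 1.7e-31). Plet1, an epithelial surface protein also found on some macrophages, read 174 and 176 against 9.23 and 10.7 (4.14, SE 0.079, adjusted p = 1.6e-26). Arg1, the arginase that consumes arginine, read 3469.9 and 3449 against 1285 and 1259.8 (1.44, SE 0.041, adjusted p = 4.2e-22). Alox15, a lipoxygenase induced by IL-4, read 38.4 and 40 against 2.4 and 2.1 (4.12, SE 0.13). The other genes among the 12 higher were Ccl9, Ccl6, Cxcl2, Cxcl3, Ccl24, the eosinophil-type ribonuclease Ear2, the fatty acid receptor Cd36 and the histone gene H4c17, which had almost no reads in either WT group.

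On the lower side stood Neat1, both inducible HSP70 genes, Cxcl9 and Mgp. Neat1, the long non-coding RNA that builds paraspeckles, read 455 and 472 CPM in treated muMT against 1549 and 1593 in WT isotype (log2 difference -1.76, SE 0.042, edgeR adjusted p = 4.7e-24). Hspa1b and Hspa1a, the inducible HSP70 genes, were lower by -1.53 and -1.33 on the log2 scale. These 2 genes are near-identical copies whose reads cannot be fully assigned between them. Cxcl9, which draws T cells through CXCR3, read 200.2 and 192 against 436 and 435 (-1.15, SE 0.044, adjusted p = 3.8e-19). Mgp, an inhibitor of matrix calcification, read 4.29 and 4.66 against 23.2 and 24.6 (-2.41, SE 0.1). The other genes among the 12 lower were Ncapg2, Pltp, Dnase1l3, Wdfy1, Cadm1, Dusp2 and the endothelial phosphatase Ptprb.

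**Figure D1:**
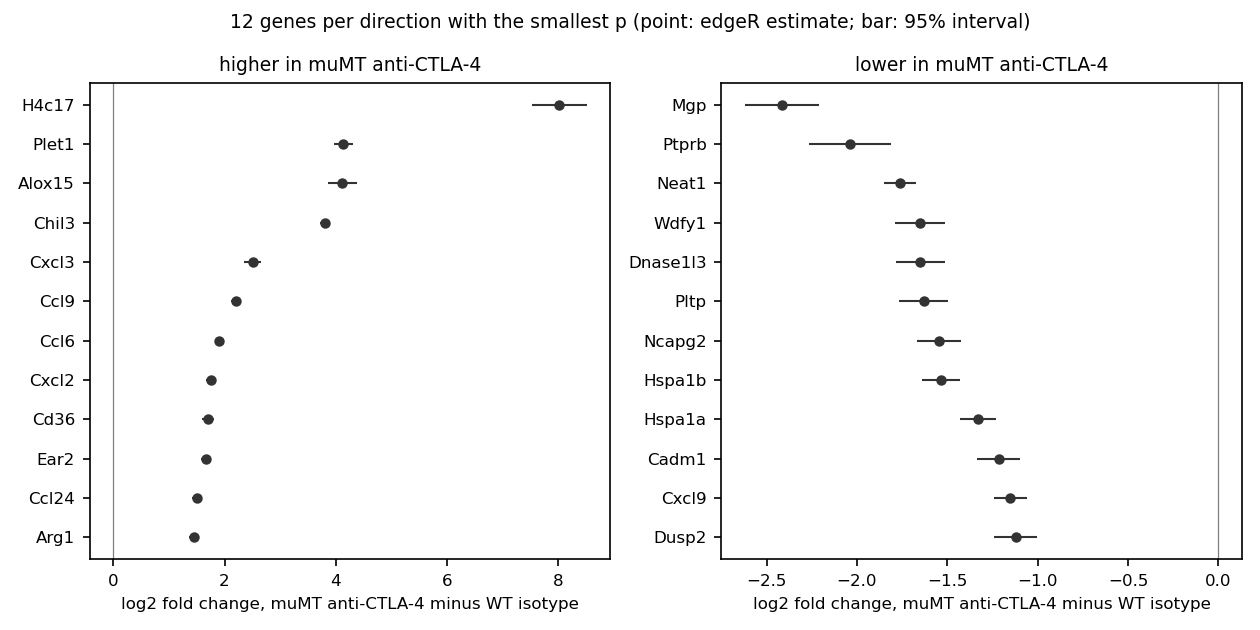
Log2 difference between treated muMT and WT isotype (x axis) for the 12 higher and 12 lower genes of smallest p among called genes of at least 2-fold and 5 CPM; points are edgeR estimates and bars 95% intervals. Plet1, Alox15 and Chil3 lie between 3.81 and 4.14, H4c17, whose estimate rests on few WT reads, lies beyond them, and Mgp lies lowest at -2.41.

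To place genes relative to the WT isotype level, the 1038 genes with a called isotype gap of at least 2-fold (436 higher and 602 lower in WT) were sorted by where blockade put them. A gene was at the WT level when blockade moved it toward WT and the 95% interval of its remaining difference lay within ±0.322 on the log2 scale, called the band below. That held for 5 genes. Blockade carried 54 genes past the WT level by a called difference wider than the band, 23 that rose and 31 that fell. It left 90 genes short of it, and moved 25 genes away from it. For 546 genes no blockade effect was called, which does not show that they stayed in place, and 56 of these reached 5 CPM. The remaining 318 genes moved toward WT but were resolved as neither at, past nor short of the level. Being at the level took a whole interval inside the band, while past and short took only a call and an estimate beyond it. These counts are thus not on equal terms. With only the estimate required inside the band, a choice made after seeing the data, 182 genes were at the level. Outside the 1038 genes, 26 were alike in both hosts under isotype (gap interval inside the same band). Blockade moved these 26 at least 2-fold, 15 up and 11 down. Single libraries moved some counts by over 1.5 times. Without replicate 2 of muMT isotype, 8 genes were at the level and 16 left a shared level. Without replicate 1 of treated muMT there were 3 at the level, 49 short and 16 moved away, and without replicate 2 of WT isotype 35 went past and 363 had no blockade call.

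**Figure D2:**
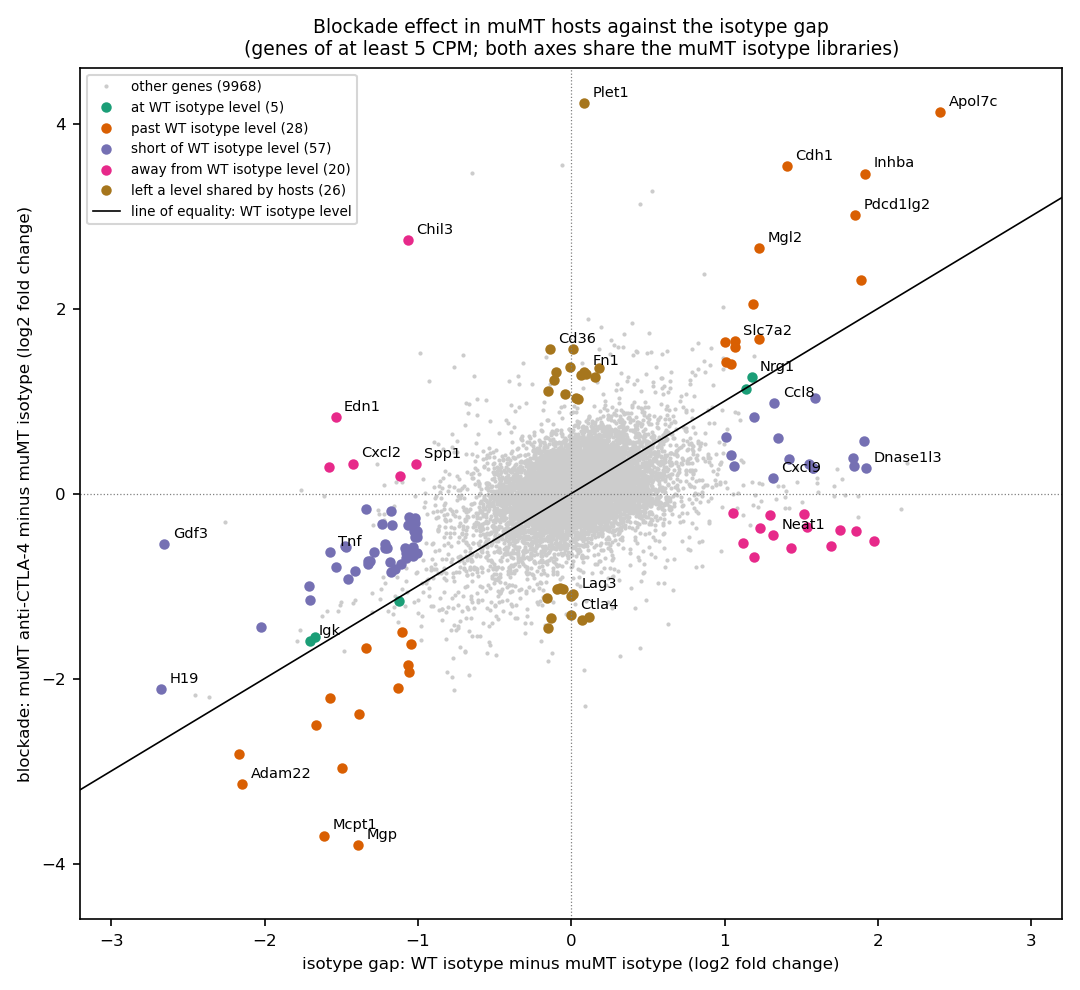
Blockade effect in muMT hosts (y axis, log2) against the isotype gap (x axis, log2) for 10102 genes of at least 5 CPM, with the line on which treated muMT equals WT isotype; Gm8221 and H4c17 fall outside the axes. Apol7c, Cdh1, Inhba, Pdcd1lg2 and Mgl2 lie above the line at the right, Mgp and Mcpt1 below it at the left, and Plet1 sits near 0 on the gap axis and at 4.22 on the blockade axis.

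The 5 genes brought to the WT isotype level were Nrg1, Trim30c, Igk, Slc2a3 and the predicted gene Gm54221. Nrg1, an ErbB growth factor, read 24.4 and 24.8 CPM in muMT isotype, 60.6 and 57.1 in treated muMT and 53.1 and 58 in WT isotype. The treated and WT libraries overlapped (remaining log2 difference 0.08, SE 0.062), while the gap was 1.18. Trim30c, of an interferon-linked TRIM family, read 4.93 and 3.55, then 9.43 and 9.15, against 9.83 and 8.91 in WT isotype. Slc2a3, the glucose transporter GLUT3, came down from 17.5 and 15.3 to 6.66 and 8.03, against 7.67 and 7.4. The Igk feature, named for the immunoglobulin kappa locus, fell from 726 and 689 CPM to 232 and 236, against 214 and 221 in WT isotype and 15.1 in both WT anti-CTLA-4 libraries. Its highest level was thus in muMT isotype, where Jchain had 0 reads. The remaining difference of Igk was 0.10 on the log2 scale and not called (edgeR adjusted p = 0.061), but became called without either muMT isotype library, without replicate 2 of WT isotype and with unstranded counts.

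Once smaller gaps were counted, 9 of 19 interferon-gamma genes with a gap were at the WT isotype level, as were 8 of 10 MHC class I genes. With the minimum gap lowered from 2-fold to the band's own width, a choice made after seeing the data, 4194 genes had a gap, of which 541 (12.9%) were at the level, 334 (7.96%) past it, 210 (5.01%) short and 346 (8.25%) moved away. A gap near that minimum is about as wide as the band, so it reaches the level with a small move. Of 35 interferon-gamma genes tested, 19 had such a gap, of which 6 went past, 1 stayed short, 1 moved away and 2 were not resolved, beside those at the level. Nlrc5, the activator of MHC class I genes, read 166 and 165 CPM in muMT isotype, 241 and 254 in treated muMT and 253 and 241 in WT isotype. Treated and WT values overlapped (remaining log2 difference 0.00, after a gap of 0.58), and treated WT mice stood higher at 410.2 and 401. Ciita, its MHC class II counterpart, read 138 and 134 against 135 and 133 (gap 0.79, remaining 0.02). Gbp7, a guanylate-binding protein, differed by -0.01 after a gap of 0.61. Of 21 MHC class I genes, 10 had a gap: 8 were at the level, among them the peptide transporter Tap1 (338 and 339 against 329 and 319) and its partner Tapbp (439.9 and 419 against 409 and 401), and the proteasome genes Psme2 and Psmb10 went past. Nlrc5, Ciita, Gbp7, Tap1, Tapbp and Psmb10, and further on Rrm2, Retnla, Flt1, Il10, Ccl3, Ccl2, Ccl7, Siglech and C3, lie outside the rule for named genes and were chosen with their values known, as were the predicted genes.

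Over the whole interferon-gamma list, 22 of 35 tested genes were higher in treated muMT than in WT isotype, 4 were lower and 9 were not called (median log2 difference 0.21, against 0.0008 over all tested genes). For the 41 type I interferon-stimulated genes the counts were 24 higher, 5 lower and 12 not called (median 0.23), and 9 of the 20 with a gap wider than the band were at the level. Oas1a, which senses double-stranded RNA, stood past WT isotype at 151 and 161 CPM against 110.1 and 105. Oasl1 was not moved by a called amount (179.8 and 175 CPM, against 164 and 175 in muMT isotype and 97.4 and 92.1 in WT isotype). The MHC class I list held 11 higher, 1 lower and 9 not called of 21 (median 0.11), and class II 5 higher, 1 lower and 7 not called of 13 (median 0.05). Of the class II genes 2 had a gap wider than the band, 1 at the level and 1 moved away. H2-Ab1, a class II chain, read 3849 and 3785 against 3918 and 3499, overlapping. Of 38 cell cycle genes tested, 18 had a gap wider than the band and 9 of these stood at the level, among them the ribonucleotide reductase subunit Rrm2 at 34.6 and 37.7 against 32.1 and 34.7, up from 18.7 and 20.1 in muMT isotype.

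**Figure D3:**
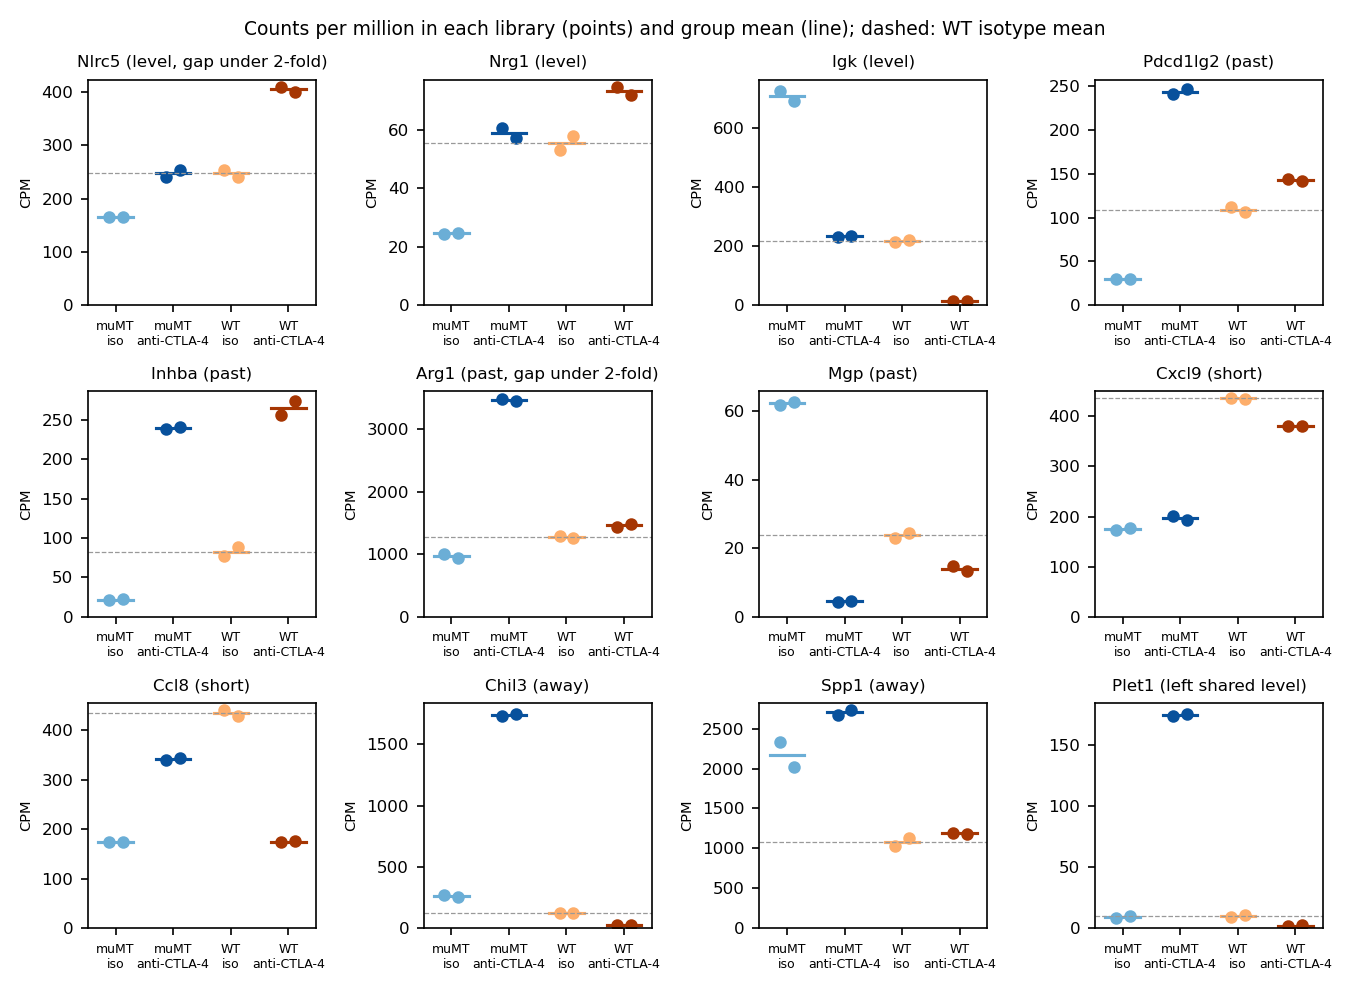
CPM (y axis, from 0) of 12 genes in the 2 libraries of each group (points) with group means (lines); the dashed line is the WT isotype mean. Treated muMT libraries sit at or near the line for Nlrc5, Nrg1 and Igk, above it for Pdcd1lg2, Inhba, Arg1, Chil3, Spp1 and Plet1, and below it for Mgp, Cxcl9 and Ccl8.

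The genes carried past WT isotype upward, 23 in all, included Pdcd1lg2, Inhba, Mgl2, Apol7c and Cdh1. Pdcd1lg2, which encodes the PD-1 ligand PD-L2, read 30 and 30.4 CPM in muMT isotype, 240.3 and 246 in treated muMT and 112 and 106 in WT isotype. WT mice given anti-CTLA-4 stood at 144 and 141. The treated muMT libraries were above all others (log2 difference from WT isotype 1.16, SE 0.048, edgeR adjusted p = 3.3e-18). Inhba, the activin A subunit, read 20.8 and 22.9, then 239 and 241, against 76.6 and 88.5 (1.54, SE 0.058). In WT anti-CTLA-4 it read 257 and 273. Mgl2, the galactose lectin CD301b, read 54.6 and 53.7, then 341 in both libraries, against 132 and 122 (1.43, SE 0.05). Apol7c, an apolipoprotein L family member, read 6.43 and 5.58, then 106 and 105, against 31.2 and 32.6 (1.72, SE 0.065). Cdh1, the adhesion protein E-cadherin, read 3.92 and 3.38, then 42.8 and 42.4, against 10.3 and 9.15 (2.13, SE 0.092). Slc7a2, which imports arginine, went to 739 and 737 against 482 and 505 (0.58). The other named genes carried past upward were Ksr2, a kinase scaffold, and Ly6i, a monocyte surface antigen. In no library pair did treated muMT and WT isotype values of these 8 genes overlap. Because the genes were sorted by a called difference past WT isotype, this is no separate evidence.

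Of the 26 alternatively activated macrophage genes tested, 21 were higher in treated muMT than in WT isotype, 2 lower and 3 not called (median log2 difference 1.17). Of the 16 with a gap wider than the band, 0 were at the WT level, 7 were past it and 6 moved away from it. Arg1, described above, and Ccl24, an eosinophil chemokine, went past: Ccl24 read 270.0 and 263 CPM, then 1375 and 1385, against 502 and 469 in WT isotype. Retnla, the resistin-like protein Fizz1, read 2.51 and 2.54, then 23.9 and 24.8, against 3.96 and 3.33. Mrc1, the mannose receptor CD206, was not moved by a called amount, at 2145 and 2115 against 1499 and 1565 in WT isotype. In arginine and nitric oxide metabolism 10 of 13 genes were higher, 0 lower and 3 not called (median 0.38). Nos2, the inducible nitric oxide synthase, read 40.4 and 46.3, then 122 and 117, against 85.9 and 86.1. Ass1, which regenerates arginine from citrulline, went from 44.7 and 43.6 to 134 and 129.8, against 83 and 82.8. In WT anti-CTLA-4, Nos2 stood at 474 and 457 and Ass1 at 283 and 277, above treated muMT, whereas Arg1 stood at 1440.1 and 1481, below it.

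The stretches of 250 bases before the start sites of Pdcd1lg2 and Apol7c are shown because both genes went past the WT level by a wide margin and hold a STAT6-type motif, TTCNNNNGAA, in capitals. Sequences are from RefSeq on GRCm38.p6, and the coordinates are of that build, not of the build of the counts. Both strands were searched, from 250 bases before to 50 after the start site. Pdcd1lg2 lies at chr19:29410669-29410918 on the plus strand, with TTCCTCAGAA beginning 82 bases before the start. Apol7c lies at chr15:77533316-77533565 on the minus strand, with TTCCTTAGAA at 72 bases before it and 2 overlapping matches to the interferon-response core GAAANNGAAA at 55 and 49 bases before it, also in capitals.
Pdcd1lg2: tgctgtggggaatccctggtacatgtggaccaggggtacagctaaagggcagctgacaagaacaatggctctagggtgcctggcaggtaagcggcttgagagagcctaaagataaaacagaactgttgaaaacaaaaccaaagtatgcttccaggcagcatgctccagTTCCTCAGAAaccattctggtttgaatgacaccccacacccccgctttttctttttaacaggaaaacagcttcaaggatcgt
Apol7c: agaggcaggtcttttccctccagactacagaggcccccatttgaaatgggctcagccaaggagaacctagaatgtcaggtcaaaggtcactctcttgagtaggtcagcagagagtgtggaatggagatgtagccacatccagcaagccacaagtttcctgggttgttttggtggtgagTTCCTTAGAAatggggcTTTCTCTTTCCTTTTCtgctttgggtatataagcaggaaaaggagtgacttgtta
TTCNNNNGAA occurred in 3 of 18 promoters of genes carried past upward, in 3 of 21 of those carried past downward and in 5.63% of 11807 promoters of tested genes. GAAANNGAAA occurred in 3.24% of the latter. A match describes these letters and does not show a bound site.

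The 31 genes carried past WT isotype downward included 2 of the collagen and matrix list and 3 of the mast cell list. Mgp read 62 and 62.9 CPM in muMT isotype, 4.29 and 4.66 in treated muMT and 23.2 and 24.6 in WT isotype. Mcpt1, a mast cell chymase, read 21.6 in both muMT isotype libraries, then 1.62 and 1.7, against 7.35 and 6.77 (log2 difference from WT isotype -2.09, SE 0.16, edgeR adjusted p = 4.9e-12). Mcpt2, its neighbour in function, read 13.5 and 13.9, then 1.62 and 1.87, against 5.09 and 4.63. Because mast cell proteases are a family of similar sequences, reads may be split between them. Col6a1, a collagen VI chain, read 33.7 and 33.5, then 7.92 and 7.69, against 16.2 and 14.6 (-0.98, SE 0.1). Mmp3, the matrix protease stromelysin, read 39.9 and 36.1, then 7.62 and 6.91, against 14.8 and 14.2 (-1.0). Adam22, Col5a3 and Sult1a1 had differences of -1.0, -0.86 and -0.84. In each of these genes the treated libraries were the lowest of the 3 groups and did not overlap WT isotype. Sorting by a called difference makes this likely.

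Some lists of other cell types were lower as well. Of 18 collagen and matrix genes, 15 were lower in treated muMT than in WT isotype, 2 higher and 1 not called (median log2 difference -1.0), and 10 of the 12 with a gap wider than the band went past. The summed level of that list was nonetheless higher in treated muMT (1706 and 1713 CPM) than in WT isotype (1195 and 1154), through Fn1, fibronectin, at 1362 and 1370.5 against 591 and 572. Fibroblast and mural genes were lower in 12 of 18 cases and never called higher (median -0.81), with summed levels of 313 and 309 CPM against 468 and 459. Mast cell and basophil genes were lower in 7 of 11, higher in 1 and not called in 3 (median -0.91), with sums of 27.1 and 29.4 against 42.3 and 40.3. Endothelial genes were lower in 15 of 19, higher in 2 and not called in 2 (median -0.91), with sums of 616 and 619 against 681 and 679. No member of these 4 lists was at 0 in all libraries. Of 8 erythroid genes only 2 were tested, 1 lower and 1 not called (median -1.77). Other such lists, each with at least 5 tested members, had medians closer to 0 or above it. Their counts stand beside 23.9% higher and 23% lower over all tested genes, and no list was tested against these shares. Oligodendrocyte genes were higher in 3 of 17 and lower in 5 (median 0.01). NK and cytotoxic genes were higher in 6 of 21 and lower in 0 (0.17), and dendritic cell genes higher in 7 of 16 and lower in 3 (0.27). Of 12 astrocyte genes 1 was higher and 3 lower (-0.17), and of 6 neuronal genes 1 was higher and 0 lower (-0.06). B and plasma cell genes were higher in 1 of 11 and lower in 5 (-0.52), and neutrophil genes higher in 2 of 12 and lower in 5 (-0.27). In the 4 lists named first, the defining markers quoted next were all lower. Col1a1 read 16.8 and 15.9 against 41.9 and 36 CPM, and Pdgfrb 3.17 and 4.12 against 9.65 and 8.94. Cdh5 read 4.02 and 4.49 against 9.05 and 9.08, and Cpa3 0.759 and 1.19 against 2.09 and 1.54. The part of these other cells in the matrix and protease results was not tested.

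Endothelial genes had a median of 0.51 in the isotype gap and of -0.58 in the blockade effect, and 6 of the 11 with a gap wider than the band moved away from WT isotype. Ptprb read 13.1 and 14.5 CPM in muMT isotype, 4.52 and 5.85 in treated muMT and 21 and 21.6 in WT isotype (log2 difference -2.04, SE 0.11, edgeR adjusted p = 1.6e-15). Slco1a4, an organic anion carrier of the blood-brain barrier, read 10.4 and 9.03, then 2.74 and 3.37, against 13.5 and 13.1. Flt1, a VEGF receptor that macrophages also carry, ran the other way and went past, from 24.8 and 25.5 to 78.4 and 81.1, against 56 and 61.3.

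Genes left short of WT isotype included chemokines and a nuclease. Ccl8, a monocyte chemokine, read 174 and 173 CPM in muMT isotype, 338 and 343 in treated muMT and 441 and 428 in WT isotype (remaining log2 difference -0.35, SE 0.043, edgeR adjusted p = 6.7e-08). Cxcl9 began at 173 and 177 and, as given above, reached less than the WT isotype level of 436 and 435. Its blockade effect was 0.17 on the log2 scale against a gap of 1.32. Dnase1l3, which digests DNA in vesicles and apoptotic debris, read 31.3 and 38.1, then 41.5 and 42.2, against 130.3 and 132. Ncapg2, a condensin subunit, read 41 and 35.5, then 47.3 and 46.6, against 133 and 141. Nnt, the mitochondrial transhydrogenase, read 20.1 and 20.8, then 27.2 and 25.8, against 54.2 and 55.4. Most of the gap remained in these 3 genes. In treated WT mice Nnt read 45.8 and 45.9 and Ncapg2 168 and 167, so both were higher in WT hosts under either antibody. The part of strain background, not given for the muMT hosts, was not tested. The histone gene H4c18 also fell short, at 26.7 and 23.9 against 64.2 and 55.1.

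Downward, 61 genes moved toward WT isotype without reaching it, Tnf and H19 among them. In the list of proinflammatory cytokines and NF-kB targets, 3 of the 11 genes with a gap wider than the band fell short, 3 moved away and 3 were not moved by a called amount. Tnf, the tumour necrosis factor gene, read 240.5 and 242 CPM in muMT isotype, 161 and 149 in treated muMT and 83.5 and 78.4 in WT isotype (remaining log2 difference 0.94, SE 0.052, edgeR adjusted p = 2.6e-15). H19, an imprinted non-coding RNA, read 44.9 and 45.1, then 10.6 and 10.2, against 7.39 and 6.73. Gdf3, a TGF-beta family ligand, read 18 and 20, then 12.7 and 13.2, against 3.46 and 2.56. Postn, the matrix protein periostin, read 26.4 and 24.1, then 10.1 and 8.47, against 5.48 and 6.95. Serpina3n, a protease inhibitor, ended at 21.7 and 19.6 against 12.3 and 13. For Morc4 the remaining difference of 0.55 was not called without replicate 1 of treated muMT or replicate 1 of WT isotype. Il10, an anti-inflammatory cytokine, and Ccl3, a macrophage chemokine, had remaining differences of 0.32 and 0.57 after gaps of -1.18 and -1.41.

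Of the 25 genes that blockade moved away from WT isotype, 18 fell and 7 rose, and 8 were lncRNA genes. For comparison, lncRNA genes were 1560 of the 16608 tested and 164 of the 546 gap genes without a blockade call. Among those that rose, Spp1, osteopontin, read 2327 and 2019.7 CPM in muMT isotype, 2675 and 2735 in treated muMT and 1029 and 1127 in WT isotype (log2 difference from WT isotype 1.33, SE 0.052, edgeR adjusted p = 3.3e-17). Cxcl2, a neutrophil chemokine, read 996 and 929, then 1218 and 1191, against 366 and 350.5. Edn1, the vasoconstrictor endothelin-1, read 17.7 and 15.7, then 28.8 and 30.6, against 5.44 and 6.07. Plk2, a stress-responsive kinase, ended at 556 and 553 against 220.2 and 226, and the organic cation transporter Slc22a4 at 22.4 and 20.5 against 5.8 and 5.96. H4c17 had 24.2 and 23.6 CPM in treated muMT and 19.9 and 19.6 in muMT isotype, against 0.0707 and 0.105 in WT isotype and 0 and 0.11 in treated WT mice. This gene thus followed the host under either antibody, and the part of strain background was not tested. As replication-dependent histone genes are close copies, reads may be split between H4c17 and H4c18. In the other direction Neat1 went from 619 and 644 to 455 and 472, away from 1549 and 1593. Wdfy1 and Tspoap1 did the same, ending at 20.5 and 21.3 against 64.1 and 67.2, and at 17.8 and 17.6 against 41.8 and 43.4.

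Of the genes named here with a gap of at least 2-fold, Chil3 moved away farthest (blockade effect 2.74 on the log2 scale). Its 250 bases before the start site, at chr3:106167565-106167814 on the minus strand of GRCm38.p6 (RefSeq), are shown for comparison with Pdcd1lg2: the search found no TTCNNNNGAA there, and 1 match to the interferon-gamma-activated site (GAS) motif TTCNNNGAA, in capitals, at 172 bases before the start.
Chil3: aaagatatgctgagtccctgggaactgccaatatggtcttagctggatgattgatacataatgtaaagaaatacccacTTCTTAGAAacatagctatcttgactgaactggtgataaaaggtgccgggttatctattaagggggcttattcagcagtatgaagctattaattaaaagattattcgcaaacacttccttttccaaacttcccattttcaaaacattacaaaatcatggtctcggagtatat
TTCNNNGAA occurred in 6.91% of the 11807 promoters and in 12 of 23 promoters of interferon-gamma genes.

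Of 25 chemokine genes tested, 17 were higher in treated muMT than in WT isotype, 5 lower and 3 not called (median log2 difference 0.78). Of the 15 with a gap wider than the band, 8 moved away from WT isotype. Ccl6 and Ccl9, macrophage chemokines of the CC class, read 1947 and 1995 CPM and 1096 and 1116 in treated muMT, against 537 and 513 and 240.3 and 241 in WT isotype. Cxcl3 read 66.7 and 66.9 against 11.8 in both WT isotype libraries. Ccl2 and Ccl7, ligands of the monocyte receptor CCR2, had log2 differences of 1.63 and 1.62. Cxcl1 differed from these: no blockade effect was called (198 and 195, against 213 and 189 in muMT isotype), and WT isotype stood at 67.7 and 63.7. Among 32 proinflammatory cytokines and NF-kB targets, 18 were higher, 5 lower and 9 not called (median 0.36).

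Some genes were alike in both hosts under isotype and left that level under blockade. Plet1 read 8.72 and 10.1 CPM in muMT isotype and 9.23 and 10.7 in WT isotype, against 174 and 176 in treated muMT and 1.84 and 2.54 for treated WT mice. Cd36 read 116 and 108 and 97.6 and 106 in the isotype groups, against 329 and 329.7. Clec7a, the beta-glucan receptor dectin-1, read 6635 and 6696 against 3013 and 3131 in WT isotype (log2 difference 1.12, SE 0.046, edgeR adjusted p = 1.8e-18). Fn1, described above, Egr2, a transcription factor induced by IL-4, Tnip3, an NF-kB inhibitor, S100a4, a calcium-binding protein of migrating cells, the adaptor Dok2 and the secretory kinase Fam20c had differences of 1.23, 1.20, 1.55, 1.41, 1.37 and 1.17. Downward, Ctla4 itself, the target of the antibody, read 11.4 and 10.4 and 10.3 and 11.5 in the isotype groups, against 4.82 and 3.91 (-1.32, SE 0.14, adjusted p = 4.6e-09). Lag3, a coinhibitory receptor also transcribed in microglia, read 30 and 32.4 against 70.4 and 63.2 in WT isotype. Cadm1, an adhesion molecule, read 47.6 and 42.9 against 105 in both. Col4a2, Cyp1b1, Igfbp3, Syne1 and Nfia had differences of -1.30, -1.43, -1.45, -0.97 and -1.10. The treated muMT values of all these genes lay outside the range of both isotype groups, as the rule that picked them makes likely.

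Cell identity genes showed fewer microglial and more monocyte-derived transcripts in treated muMT than in WT isotype. Of 20 homeostatic microglia genes, 12 were lower, 1 higher and 7 not called (median log2 difference -0.38), with summed levels of 4610 and 4564 CPM against 5795 and 5810. Tmem119, a microglial membrane protein, read 71.2 and 73.5 against 128 and 118 (-0.76, SE 0.055, edgeR adjusted p = 1.2e-12), and Cx3cr1, the fractalkine receptor, 184 and 187 against 354 and 349 (-0.92). Siglech, a microglial lectin, stood at the WT level, at 32.5 and 32 against 33.5 and 33.1. Of 21 monocyte-derived genes, 15 were higher, 2 lower and 4 not called (median 0.50), with sums of 21855 and 21724 against 15897 and 15962. Ly6c2, an antigen of inflammatory monocytes, read 101 and 93.1 against 39 and 41.1, and Lyz2, lysozyme, 8632 and 8498 against 4817 and 4799. Of 20 lipid-associated genes, 12 were higher, 5 lower and 3 not called (median 0.34). Lgals3, galectin-3, read 1438 and 1431 against 674 and 647, whereas Apoe, the lipid carrier, read 6989 and 6879 against 13218 and 11711.

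Receptors for IgG were close to the WT isotype level, which does not show that blockade brought them there. Of 7 tested, Fcer1g, Fcgr3 and Fcgr1 were higher, 0 were lower and 4 were not called (median log2 difference 0.05). Over all tested genes 23.9% were higher and 23% lower. Fcgr3 read 1445 and 1447 CPM against 1186 and 1154 (0.31, SE 0.041, edgeR adjusted p = 4.2e-07), after 1500 and 1396 in muMT isotype. No blockade effect was called for Fcgr3 or Fcer1g, and both already stood above WT isotype in muMT isotype. Fcgr4, a receptor for IgG2 antibodies, read 425 and 439 against 426 and 430.1, overlapping (0.01, SE 0.044), after 441 and 409 in muMT isotype. Fcgr2b, the inhibitory receptor, read 1002 and 1004 against 971 and 969, after 783 and 785 in muMT isotype.

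Nuclear oxidative phosphorylation and NRF2 genes stood mostly above WT isotype. Of 37 nuclear genes of oxidative phosphorylation, 34 were higher, 0 lower and 3 not called (median log2 difference 0.31), though their gap median was -0.02. Atp5po, an ATP synthase subunit, read 136 and 141 CPM against 87.9 and 81.4. NRF2 antioxidant genes were higher in 16 of 18 and lower in 0 (median 0.47), with Hmox1, haem oxygenase, at 562 and 563 against 299.9 and 287. Among 24 unfolded protein response and heat shock genes, 18 were higher, 5 lower and 1 not called (median 0.26). Atf4, the amino acid stress factor, read 384 and 381 against 212 and 207, after 411 and 403 in muMT isotype. Hsph1, an HSP110 chaperone, read 82.5 and 81.3 against 154 and 166, after 87.2 and 85.7 in muMT isotype. No blockade effect was called for Atf4 or Hsph1. Glucocorticoid-responsive genes split, with 7 of 15 higher and 6 lower (median -0.27). Glycolysis and hypoxia genes were higher in 11 of 24 and lower in 5 (median 0.07), and mitochondrially encoded genes higher in 3 of 9 and lower in 1 (0.15). Of the glucocorticoid-responsive genes, Fkbp5 and Tsc22d3 went past WT isotype downward, to 75.5 and 72.8 against 116 and 118 and to 132 and 139 against 218 and 211, whereas Mt1, a metallothionein, stopped short at 218 and 219 against 134 and 130.2.

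**Figure D4:**
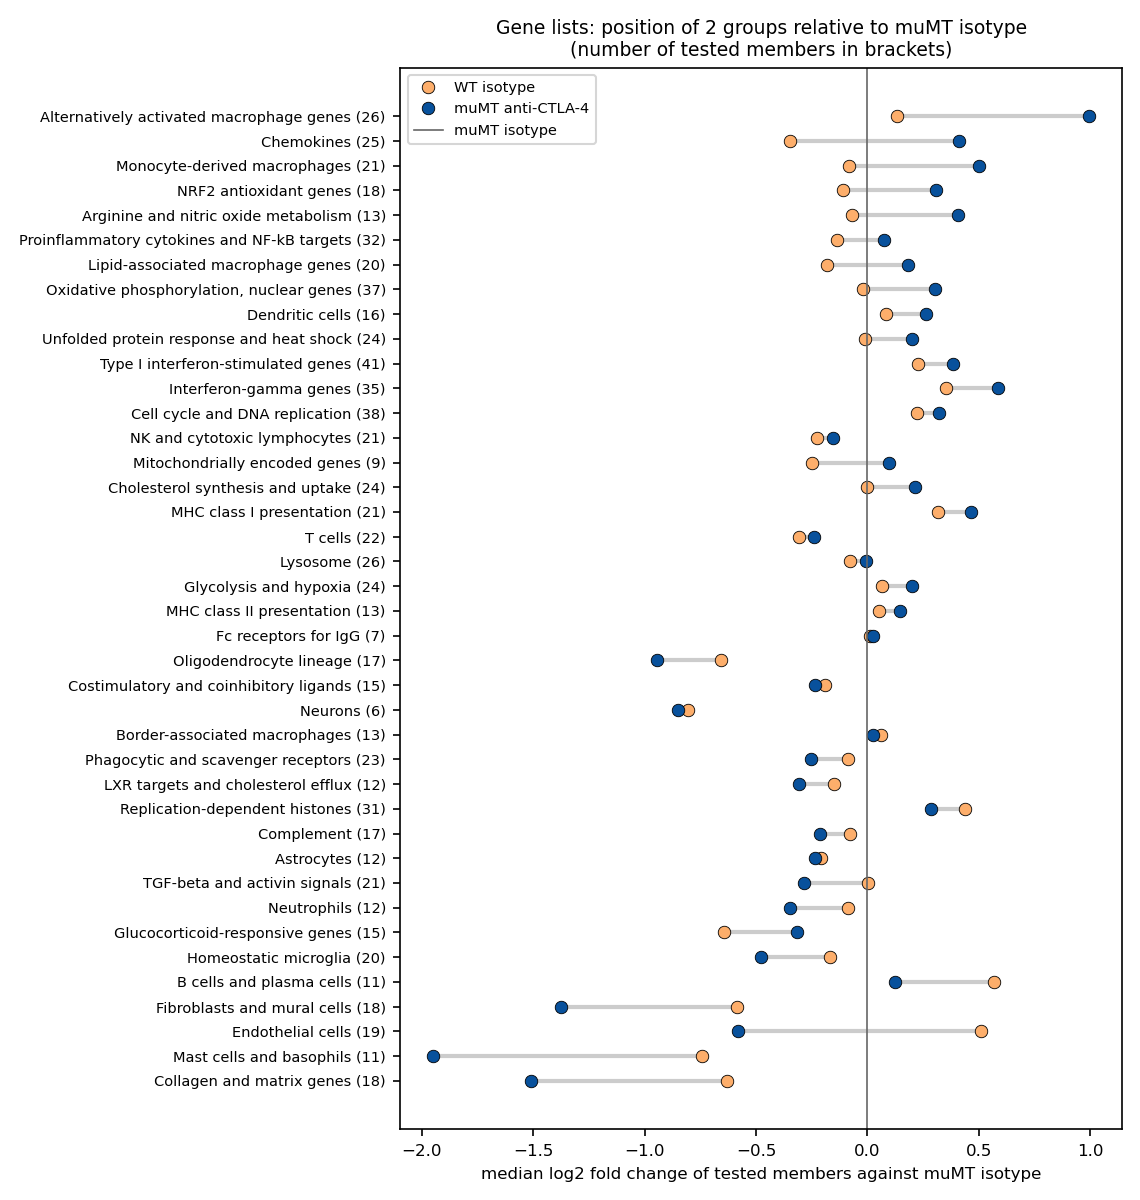
Median log2 difference from muMT isotype (x axis) of the tested members of each gene list with at least 5 tested members (y axis, number tested in brackets) for WT isotype (orange) and treated muMT (blue); 0 is muMT isotype. Interferon-gamma genes lie at 0.35 and 0.58, alternatively activated genes at 0.13 and 0.99, and collagen and matrix genes at -0.63 and -1.51.

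Calls were also counted by transcript class, beside 23.9% higher and 23% lower over all tested genes, with no test between classes. Of 13278 protein-coding genes, 3632 were higher in treated muMT than in WT isotype and 3169 lower. Of 1560 lncRNA genes, 155 were higher and 270 lower, and of 605 pseudogenes 38 and 119. Small nucleolar RNA genes, which guide ribosomal RNA modification, had 1 higher and 19 lower of 121 (median log2 difference -0.28). Replication-dependent histone genes were higher in 4 and lower in 12 of 31 (median -0.15). The share of reads outside genes was lower in treated muMT, as given above, and 3 abundant small RNAs (Rpph1, Rn7sk and Rmrp) took 1.97% ± 0.0267 (SD, n = 2) of reads in genes there against 1.47% ± 0.0760 in WT isotype. The part of these shares in the counts by class was not tested.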

How the data were processed

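Phagocytes sorted from GL261 gliomas were profiled in 8 stranded total RNA libraries, 2 for each host and antibody. Raw read counts per gene were used as deposited by the authors, in the reverse-strand column, which held 23.3 to 26.5 times as many reads as the forward-strand one. Per the submitters' processing notes, cutadapt 5.0, STAR 2.7, DESeq2 1.42.1 and mm39 were used, and the gene annotation is not given in the sources used here. Reads outside genes, 18.6% to 33.3% per library on this strand, stayed out of library sizes. Of 50763 genes listed, 30432 had a read and 16608 passed filterByExpr by group. With edgeR 4.0.16 in R 4.3.3, a robust quasi-likelihood model was fitted after TMM scaling, as 4 group means over all 8 libraries, with Benjamini-Hochberg adjustment over all tested genes. SEs were computed as the log2 difference divided by the root of F. The fit and sorting rule were run on simulated data, with gaps wider than the 2-fold minimum planted in genes of at least 5 CPM. No gap near that minimum, and none in genes under 5 CPM, was planted. The common biological coefficient of variation was 4.11%. Libraries of a group differed by 1.77 to 7.77 times counting error (chi-square per degree of freedom). That spread does not show whether they came from separate mice or are technical. All were kept as replicates.

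Genes and lists were chosen with earlier results of these data known. Named genes needed 5 CPM over the 6 libraries of 3 groups: the 12 higher and 12 lower of smallest p among called, 2-fold, non-overlapping genes; the 8 (at the level, past, left a shared level) or 6 (short, away) widest per direction; up to 4 per list by p, with no CPM minimum; and fixed checks. Predicted symbols were left out. An annotation of GRCm38 gave biotypes by name (95.6% matched), and promoters came from RefSeq on GRCm38.p6. Alternatives were DESeq2 1.42.0 and its size factors, no filter, unstranded counts, a replicate block, 6 libraries, single libraries left out and other thresholds.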

Additional observations from a re-analysis of the deposited data

How the results depend on the processing

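Of the 205 named genes, 193 were called between treated muMT and WT isotype, and 182 of these kept their call in all 12 refits, with none reversed; Itgam, for one, was not called without replicate 1 or 2 of treated muMT. Leaving out 1 library at a time (the lone library of a group is then taken to vary like the others) gave 6057 to 8424 called genes between treated muMT and WT isotype, 4822 to 6212 for the gap and 5322 to 7092 for blockade. It gave 3 to 8 genes at the level, 35 to 55 past, 49 to 94 short, 16 to 29 away, 363 to 673 without a blockade call and 16 to 28 that left a shared level. Unstranded counts gave 9 at the level, 49 away and 959 without a blockade call, and DESeq2's Wald test 3 at the level. A 1.5-fold minimum gave 90 at the level, 168 past, 188 short, 122 away, 994 without a call and 203 that left a shared level. A 1.5-fold band gave 62 at the level and 116 that left a shared level. Chosen after seeing the data, a minimum equal to the band gave 541, 334, 210, 346, 1883 and 1068 in the same order. Genes of at least 5 CPM alone gave 28 past, 57 short and 56 without a call, and taking the estimate rather than its interval inside the band gave 182 at the level. The number at the level thus depends on the thresholds, whereas 3 to 5 of the 5 genes stayed there in each refit. Replicate numbers did not pair the libraries: same-numbered deviations correlated at -0.233 to 0.0611 over 10102 genes. The value of -0.233 was that of muMT isotype with WT isotype. Variation shared between libraries of unlike number was not tested. A replicate block gave 7543 called genes between treated muMT and WT isotype. With 2 libraries per group, differences among genes of few reads were often not resolved.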

Other observations

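Of 26 lysosomal genes, 11 were higher in treated muMT than in WT isotype, 4 lower and 11 not called (median log2 difference 0.07), yet Atp6v0d2, a proton pump subunit of fused and phagocytic macrophages, read 236 and 240.0 CPM against 96.8 and 99.1. Of 24 cholesterol synthesis and uptake genes, 8 were higher, 1 lower and 15 not called (median 0.13). Pmvk, phosphomevalonate kinase, read 83.3 and 80.2 CPM against 128 and 123. Of 17 complement genes, 10 were lower, 2 higher and 5 not called (median -0.16). Among the lower genes, C4b read 226 and 225 against 307 and 286, and Cfb 912 and 915 against 1171 and 1159. Against the direction of most of the list, C3 read 1031 and 1029.5 against 856 and 832, up from 356 and 382 in muMT isotype. C3 did not settle in any outcome. Cfp, properdin, was also higher, at 268 in both treated libraries against 167 and 152. Of 22 T cell genes, 6 were higher, 4 lower and 12 not called, near the shares over all tested genes (23.9% and 23%). Cd4 read 2.87 and 3.03 against 8.98 and 10.2, and Il7r, a cytokine receptor subunit, 106 and 101 against 50.9 and 56.8.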
